A study of Mus musculus with 18 samples.

Results

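Skeletal muscle myosin heavy chains were followed through 6 genes, Myh1, Myh2, Myh3, Myh4, Myh7 and Myh8, in gracilis muscle of mice given clenbuterol, a beta-adrenergic agonist. Every probeset whose platform annotation names a member was taken, which gave 11 of the 45037 distinct probesets on the MOE430A and MOE430B chips. Of these, 9 were annotated to 1 member alone and 2 to Myh7 together with Myh6, the cardiac alpha isoform. The filter on dim signals passed 8 of the 9 and 1 of the 2, and 33752 probesets in all. The mice were C57BL/6J males, 3 to 5 wk of age. After a week of acclimation they were injected intraperitoneally once a day for 10 days with vehicle or with clenbuterol at 1 mg/kg. Muscle was collected 24 h after the last injection. Group C had vehicle on all 10 days, group 24 h (1D in the sample labels) had vehicle for 9 days and then clenbuterol for 1 day, and group 10 D had clenbuterol on all 10 days. Each group was represented by 3 pools of RNA, each pool held RNA of 3 mice, so that the 9 pools took 18 arrays, 1 of either chip per pool. The 27 pooled mice were not a random draw, since those with the largest shifts in blood urea nitrogen and body weight gain had been chosen, and treatments had been assigned to whole cages.

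A myosin heavy chain is the motor subunit of the thick filament, and the isoform a fibre makes sets how fast that fibre shortens. In adult rodent limb muscle, Myh7 encodes the slow type I chain, Myh2 the type IIa chain, Myh1 the type IIx chain and Myh4 the type IIb chain, which is the fastest. Myh3 encodes the embryonic chain and Myh8 the perinatal chain, both made in developing and regenerating fibres and largely replaced by the adult fast chains after birth. Beta-adrenergic agonists are known for enlarging skeletal muscle and, in rodents, for shifting it towards faster isoforms.

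The perinatal and embryonic isoforms had their highest levels after 10 days of clenbuterol. For each adult isoform the groups overlapped in the probesets annotated to it alone, and none of these was called in any comparison. The level of Myh8 was 3.01-fold higher at 10 D than in C and that of Myh3 2.49-fold higher, with all 3 pools at 10 D above all 6 other pools for both genes. Neither passed the threshold after adjustment over all probesets. A level is the deposited signal over the median of all signals on that array, and the F test and the contrasts came from 1 linear model per chip on the log2 level (limma), with p-values adjusted over all 33752 probesets and called at an adjusted p under 0.1. The F test called 0 of the 8 tested members of a single gene and 73 of all probesets (0.216%). At 24 h against C it was 0 of 8 members and 154 of all probesets (0.456%), and at 10 D against C 0 of 8 and 0 of all (0%). In the direct comparison of 10 D with 24 h 0 of 8 members and 17 of all probesets (0.0504%) were called. At an unadjusted p under 0.05 the members numbered 1 in the F test, 0 at 24 h against C, 1 at 10 D against C and 2 at 10 D against 24 h, where the shares of all probesets were 6.62%, 8.55%, 4.56% and 5.48%. A plain analysis of variance per probeset, the method the study used, also called 0 members in each comparison. The median log2 change of the 8 members was −0.27 at 24 h and −0.27 at 10 D, against 0.02 and 0.01 over all probesets.

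**Figure D1:**
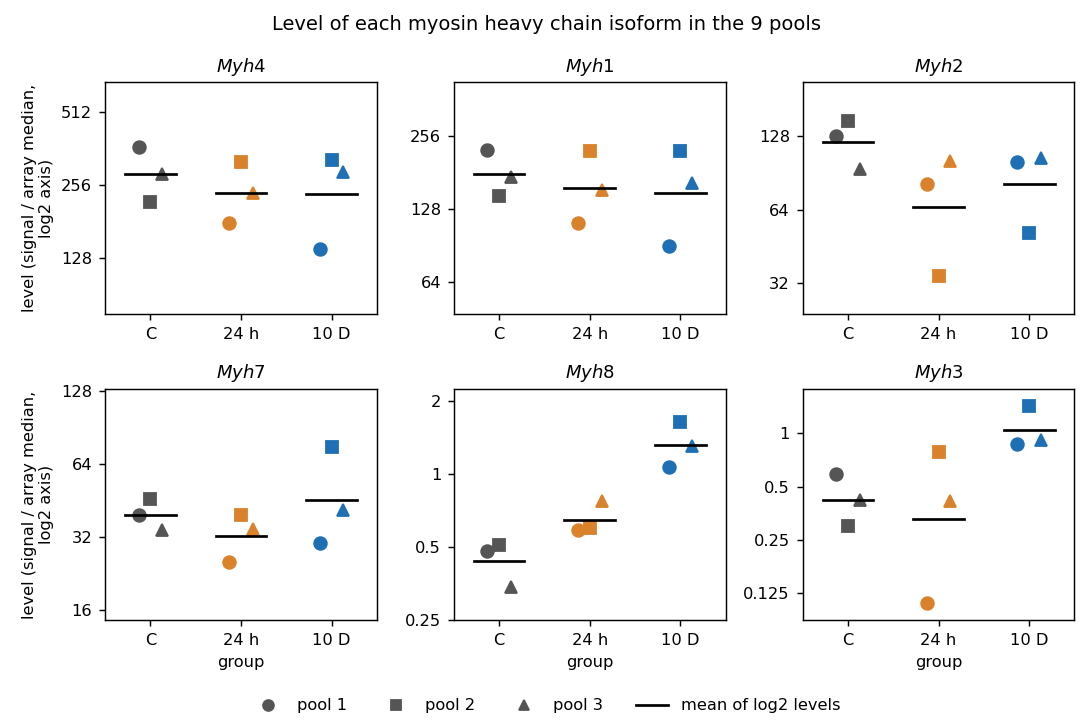
Level of each isoform (signal divided by the array median, log2 axis) in the 3 pools of C, 24 h and 10 D, for the brightest probeset of each gene. Symbols give the pool number and black bars the mean of the log2 levels. Only in the Myh8 panel do the 3 groups separate completely, and in the Myh3 panel the 3 pools at 10 D lie above the other 6, whereas the groups overlap in the panels of Myh4, Myh1, Myh2 and Myh7.

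The arrays themselves differed in brightness. On MOE430A the median signal of an array ran from 30.8 to 88.4, a 2.87-fold range, while the highest signal of an array ran only from 13972.6 to 17142.6. Among the 100 brightest MOE430A probesets, 81 had a Pearson correlation under −0.5 between their log2 level and the log2 array median over the 9 pools, with a median of −0.83. The fast isoforms Myh4 and Myh1 were of this kind. The Myh4 signal stayed between 10841.7 and 14068 on all 9 arrays, so its level moved opposite to the array median, with r = −0.97 over 9 pools, and r was likewise −0.97 for Myh1. For Myh7 it was −0.54, for Myh2 0.41, for Myh8 0.068 and for Myh3 −0.38. The part of this in the group differences was not tested beyond other scalings, and where a scaling turned the direction of a member it is named with that member. Pools numbered 2 of 24 h and 10 D also deviated together from their group means, with a correlation of 0.56 over the probesets of MOE430A, where the 18 same-numbered pairs of pools ranged from −0.072 to 0.56. The correlation of the pools numbered 1 of the same groups was 0.39 on that chip and of those numbered 3 0.1, against −0.072 to 0.046 for the 12 pairs with a C pool on either chip. In both treated groups pool 2 had the lowest MOE430A median (35.7 at 24 h, 33.6 at 10 D) and pool 1 the highest (62.1 and 88.4). In C pool 1 had the lowest (30.8) and pool 2 the highest (64.95). The part of array brightness in these correlations was not tested. Leaving out both treated pools numbered 2 also removed the dimmest treated arrays. Values without both treated pools numbered 2 are given with each member and ratio that they moved by over 1.5 times or turned.

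**Figure D2:**
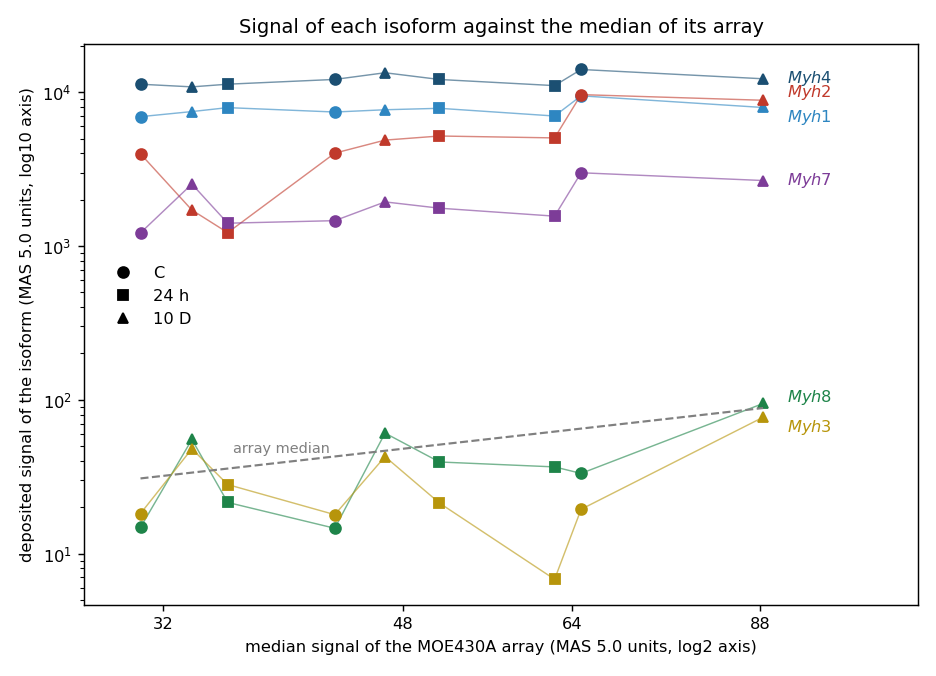
Deposited signal of each isoform (log10 axis) against the median signal of the same MOE430A array (log2 axis), 1 point per pool with the group as symbol, joined in the order of the array medians; the dashed line is the array median itself. The Myh4 and Myh1 signals stay nearly level while the array median runs from 30.8 to 88.4, and the 10 D points of Myh8 (55.2 to 94.6) and Myh3 (42.7 to 77) lie above all other points of the same gene.

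Of the developmental isoforms, Myh8 (probeset 1426650_at) gave the clearest order. Its signal was 14.8, 33.2 and 14.6 in the C pools, 36.6, 21.5 and 39.4 at 24 h and 94.6, 55.2 and 60.7 at 10 D. Divided by the array medians, the levels were 0.4805, 0.5112 and 0.3411 in the C pools, 0.5894, 0.6022 and 0.771 in the 24 h pools and 1.07, 1.643 and 1.303 in the 10 D pools. Every 24 h level was thus above every C level and every 10 D level above every 24 h level, whereas in the unscaled signals only the 10 D pools stood apart and the 24 h and C pools overlapped. Complete separation of the pools in the order C, 24 h, 10 D was found for 1 of the 8 members and for 23 of 33752 probesets (0.0681%). The share describes how common this order was. That Myh8 met it is no test, since the order is that of its own levels. All 24 h pools above all C pools, a weaker criterion, was met by 1 member, Myh8, and by 9.60% of all probesets.

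The mean level of Myh8 was 0.444 ± 0.0906 (SD, n = 3 pools) in C, 0.654 ± 0.101 at 24 h and 1.34 ± 0.288 at 10 D. The log2 change was 0.57 (SE 0.307) at 24 h, with an adjusted p of 0.66, and 1.59 (SE 0.307) at 10 D, where the unadjusted p of 0.00038 became 0.55 after adjustment by limma over all probesets. From 24 h to 10 D it was 1.02, with an adjusted p of 0.64. The F test gave an adjusted p of 0.22. Over the 280 divisions of the 9 pools into 3 groups of 3, an exact permutation test of the F ratio of this probeset alone gave p = 0.00357, the smallest p the design allows. That test was added after the data were seen. It was run for each of the 8 tested members and the dim Myh1 probeset, with no adjustment over them, and no other was under 0.05. With no scaling between arrays the exact permutation p of Myh8 was 0.0286.

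Myh3 (1427115_at) was highest at 10 D but did not follow the same order at 24 h. Its signals were 18.2, 19.4 and 17.9 in the C pools, 6.8, 28.1 and 21.3 in the 24 h pools and 77, 48 and 42.7 in the 10 D pools. As levels these were 0.5909, 0.2987 and 0.4182 in the C pools, 0.1095, 0.7871 and 0.4168 in the 24 h pools and 0.871, 1.429 and 0.9163 in the 10 D pools. The 24 h pools spread on both sides of the C pools, and the 10 D pools lay above all others. Having all 10 D pools above all C and all 24 h pools was shared by 2 of 8 members, Myh3 and Myh8, and by 1.01% of all probesets, and having them above the C pools alone by the same 2 members and 5.76%. These shares too are descriptions and no test of either gene. The mean level was 0.436 ± 0.147 (SD, n = 3) in C, 0.438 ± 0.339 at 24 h and 1.07 ± 0.310 at 10 D. The log2 change was −0.35 (SE 0.647) at 24 h and 1.32 (SE 0.647) at 10 D, with adjusted p-values of 0.93 and 1, and from 24 h to 10 D it was 1.66, with an adjusted p of 0.84. The 24 h value turned to 0.45 without pool 1 of 24 h, the pool with the signal of 6.8, and was −0.97 without both treated pools numbered 2. By the exact permutation test p was 0.125 for Myh3, and 0.0357 with no scaling between arrays.

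Both developmental probesets were dim. Averaged over the 9 pools, Myh8 stood at the 43.0th and Myh3 at the 35.7th percentile of MOE430A, where the filter cut at the 25th, and in C every pool of both genes was below the array median. In bulk RNA a higher level in all fibres cannot be told apart from more fibres that make the transcript. Of 11 other genes of developing and regenerating fibres on the chips 10 were tested. At 10 D none was called, as was so for all probesets (0%), and 4 had a log2 change above 0 and 6 below, with a median of −0.06 against 0.01 over all probesets. At 24 h 1 of the 10 was called, where 0.456% of all probesets were. This was Myog, encoding the myogenic regulator myogenin, whose level was 2.07 ± 0.460 (SD, n = 3) in C, 8.58 ± 1.85 at 24 h and 2.29 ± 0.871 at 10 D. Its log2 change at 24 h of 2.06 passed the test, with an adjusted p of 0.053 in limma, a call that was lost without any 1 of the C or 24 h pools or pool 3 of 10 D (adjusted p from 0.11 to 0.25), without an intensity trend in the variances (0.13), with no scaling between arrays (0.76) and in the plain analysis of variance (0.19). Actc1, the cardiac alpha-actin that developing skeletal muscle also makes, had a level of 164 ± 48.2 (SD, n = 3) in C and 80.8 ± 15.7 at 24 h, with an adjusted p of 0.32.

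The promoters of these genes are shown because Myh3 and Myh8 were both highest at 10 D while their fast neighbours were not. Myh3, Myh2, Myh1, Myh4 and Myh8 lie in this order on mouse chromosome 11, with the antisense gene Myhas between Myh1 and Myh4, and Myh7 lies beside Myh6 on chromosome 14. RefSeq promoters (GRCm38.p6, 250 bases before to 50 bases after the annotated start) were found for all 6 genes, with 2 starts for Myh7. The full windows of Myh3 and Myh8 follow, 5′ to 3′ on the plus strand at chr11:67078050-67078349 and chr11:67276874-67277173, with capitals marking each E box, the letters CANNTG bound by myogenic regulators.
Myh3: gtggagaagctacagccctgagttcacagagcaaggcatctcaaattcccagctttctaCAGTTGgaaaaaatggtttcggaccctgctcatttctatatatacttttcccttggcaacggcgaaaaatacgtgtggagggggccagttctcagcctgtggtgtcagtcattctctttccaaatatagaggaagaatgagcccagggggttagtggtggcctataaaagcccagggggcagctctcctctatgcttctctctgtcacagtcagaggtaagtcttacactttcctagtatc
Myh8: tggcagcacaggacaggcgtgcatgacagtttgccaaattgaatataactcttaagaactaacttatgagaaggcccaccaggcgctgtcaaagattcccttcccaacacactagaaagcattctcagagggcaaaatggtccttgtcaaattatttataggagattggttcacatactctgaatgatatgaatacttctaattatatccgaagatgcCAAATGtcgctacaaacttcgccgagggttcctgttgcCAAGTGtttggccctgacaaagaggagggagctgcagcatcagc
With the start as position 1 and the base before it as −1, Myh3 had 1 E box, at −191 to −186, and Myh8 had 2, at −32 to −27 and at 7 to 12. The other promoters had 3 (Myh4), 2 (Myh7, from either start) and 0 (Myh1 and Myh2). An E box on either strand is common, in 72.3% of the 32851 promoters of 300 bases searched.

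Myh1, Myh2, Myh4 and Myh8 shared a stretch of 14 bases that was found by comparing these 4 promoters, and it was in no other of the 32851 promoters (4, or 0.0122%), also not in those of Myh3 and Myh7. It is given in capitals within 60-base windows on the plus strand, to show its surroundings, at chr11:67199919-67199978 for Myh1, chr11:67170879-67170938 for Myh2, chr11:67237631-67237690 for Myh4 and chr11:67277047-67277106 for Myh8. After the stretch the bases of Myh1 and Myh2 were largely alike, while those of Myh4 and Myh8 differed from them and from each other.
Myh1: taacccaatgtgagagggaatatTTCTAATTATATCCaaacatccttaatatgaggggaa
Myh2: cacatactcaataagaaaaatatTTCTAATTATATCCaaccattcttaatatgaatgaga
Myh4: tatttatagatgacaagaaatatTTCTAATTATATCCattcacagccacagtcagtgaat
Myh8: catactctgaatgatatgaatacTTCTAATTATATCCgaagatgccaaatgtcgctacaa
The stretch began at position −160 in Myh1, −125 in Myh2, −158 in Myh4 and −54 in Myh8. Other motifs were searched on both strands. MEF2 sites, which are A/T-rich and bound by MEF2 factors of muscle genes, had 1 match each in Myh1, Myh4 and Myh8 (3.19% of all promoters hold 1), and each match overlapped a TATAAA match. TATAAA itself, in 13.6% of all promoters, had 1 match in Myh3, Myh2 and Myh8, 2 in Myh1, 3 in Myh4 and 0 in Myh7. The CArG box, bound by serum response factor, had 1 match, in Myh4 (1.63% of all). GGAAA, the core of NFAT sites (61.3% of all), had 4 matches in Myh3, 3 in Myh1, 1 in Myh2, 2 or 3 in Myh7 depending on the start and 0 in Myh4 and Myh8, and the first of Myh3 overlapped its E box by 1 base. TGACG, part of the element through which cyclic AMP acts (20.8% of all), was found in Myh7 only. These are matches of letters within 300 bases, not binding sites.

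**Figure D3:**
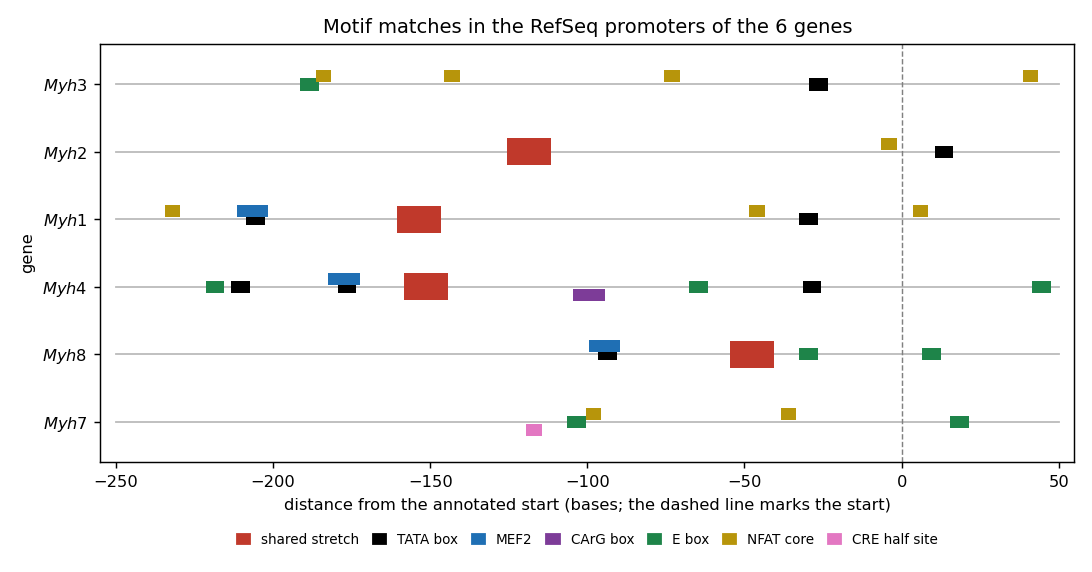
Positions of motif matches in the RefSeq promoter windows of the 6 genes (first annotated start for Myh7), as distance in bases from the annotated start (dashed line); each coloured block is 1 match. The shared 14-base stretch is present in Myh2, Myh1, Myh4 and Myh8, between positions −160 and −41, and absent from Myh3 and Myh7.

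Among the adult fast isoforms, Myh4 (type IIb) was among the brightest probesets of the chip in every pool. The signal of 1427026_at was 11280.6, 14068 and 12120.9 in the C pools, 11047.1, 11284.7 and 12110.6 in the 24 h pools and 12238.7, 10841.7 and 13394.9 in the 10 D pools, which ranked between 6 and 20 of 22626 on its arrays. The corresponding levels were 366.3, 216.6 and 283.2 in the C pools, 177.9, 316.1 and 237 in the 24 h pools and 138.4, 322.7 and 287.4 in the 10 D pools. The groups overlapped, and the lowest level was that of the array with the highest median, pool 1 of 10 D. The log2 change was −0.25 at 24 h (95% interval −1.05 to 0.54, adjusted p = 0.90 in limma) and −0.27 at 10 D (−1.06 to 0.53, adjusted p = 1). With quantile normalisation the same changes were −0.01 and −0.04, and without pool 1 of 10 D the change at 10 D turned to 0.11. Without both treated pools numbered 2 the changes were −0.46 and −0.50 (adjusted p = 0.66 and 0.75).

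A second Myh4 probeset, 1458368_at on MOE430B, varied more. Its signals were 4627.2, 3818.2 and 2893.2 in the C pools, 1724.7, 2783.2 and 2906 in the 24 h pools and 4968.5, 1231.7 and 3345.4 in the 10 D pools. Its log2 changes were −0.39 and −0.62, neither past the threshold (adjusted p = 0.89 and 1), and without pool 1 of 24 h the first turned to 0.03. Without both treated pools numbered 2 they were −0.69 and −0.36. Over the 9 pools its log2 levels correlated with those of the other Myh4 probeset with r = 0.43, as a description of pools that share RNA but not chip.

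The brightest Myh1 (type IIx) probeset ran parallel to Myh4. The signals of 1427868_x_at were 6938.6, 9480.6 and 7439 in the C pools, 7006.9, 7945.2 and 7864.5 in the 24 h pools and 7960.5, 7488.8 and 7695.5 in the 10 D pools. In level it changed by −0.19 (log2, 24 h) and −0.26 (10 D), with overlapping pools and adjusted p-values of 0.93 and 1, and they correlated with the Myh4 levels with r = 0.98 over 9 pools, where both share the dependence on the array median. On the unscaled log2 signal the correlation was 0.75. For the other bright Myh1 probeset, 1427520_a_at, the correlation with Myh4 was 0.88 on the level but −0.064 on the unscaled log2 signal. The probeset 1427520_a_at had signals of 5447.3, 6708.9 and 4754 in the C pools, 6216.6, 4825.6 and 5067.2 in the 24 h pools and 4783.6, 6107 and 4548 in the 10 D pools, and log2 changes of −0.20 and −0.36 (adjusted p = 0.93 and 1). Leaving out 1 pool turned each of these 4 changes of Myh1, to at most 0.10. Without both treated pools numbered 2 they were −0.44 and −0.55 for the first probeset and −0.35 and −0.80 for the other (adjusted p-values from 0.56 to 0.73). The third Myh1 probeset, 1452465_at, was too dim to be tested, with signals from 2.6 to 46.3. The suffix x marks probesets with probes that can also match other transcripts, so a part of the Myh1 signal may come from its close relatives. A probeset annotated to Myhas cites the sequence record that the Myh1 probeset 1427868_x_at cites, so what it measured is uncertain, and it changed by −0.67 (log2, 24 h) and −0.64 (10 D) (adjusted p = 0.70 and 1).

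Myh2 (type IIa) had its lowest mean level at 24 h, where 1 pool lay far below the other 2. Its signal (1425153_at) was 3976.4, 9654 and 4018.3 in the C pools, 5048.5, 1221.8 and 5194.2 in the 24 h pools and 8870.3, 1713.9 and 4884.7 in the 10 D pools. The levels were 129.1, 148.6 and 93.89 in the C pools, 81.3, 34.22 and 101.6 in the 24 h pools and 100.3, 51.01 and 104.8 in the 10 D pools. Pools numbered 2 of 24 h and 10 D were the lowest 2 of the 9, and the other 4 treated pools reached from 81.3 to 104.8, overlapping the C pools. The mean was 123.9 ± 27.75 (SD, n = 3) in C, 72.4 ± 34.6 at 24 h and 85.4 ± 29.9 at 10 D. The log2 change was −0.89 (SE 0.421) at 24 h and −0.58 (SE 0.421) at 10 D, with adjusted p-values of 0.61 and 1 in limma and an exact permutation p of 0.271 over the 3 groups. Without both pools numbered 2 these changes were −0.42 and −0.25, with adjusted p-values of 0.53 and 0.83.

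Myh7, the slow isoform, had its highest level in pool 2 of 10 D and its highest signal in pool 2 of C. The signals of 1448553_at were 1217.6, 2995.2 and 1462 in the C pools, 1564.2, 1407.4 and 1762.4 in the 24 h pools and 2666.9, 2529.6 and 1936.5 in the 10 D pools, and the levels 39.53, 46.12 and 34.16, then 25.19, 39.42 and 34.49, then 30.17, 75.29 and 41.56. The groups overlapped. The log2 change was −0.29 (SE 0.327) at 24 h, with an adjusted p of 0.87, and 0.20 at 10 D, with an adjusted p of 1, and the latter turned to −0.16 without pool 2 of 10 D. Without both treated pools numbered 2 the changes were −0.43 and −0.16. The tested probeset shared by Myh7 and Myh6, 1448554_s_at, had signals from 446.5 to 1747.2 and log2 changes of −0.47 and 0.15 (adjusted p = 0.70 and 1), and the other, 1448827_s_at, did not exceed a signal of 22.5. Both probesets annotated to Myh6 alone were too dim to be tested, the brighter with signals from 6.6 to 21.

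**Figure D4:**
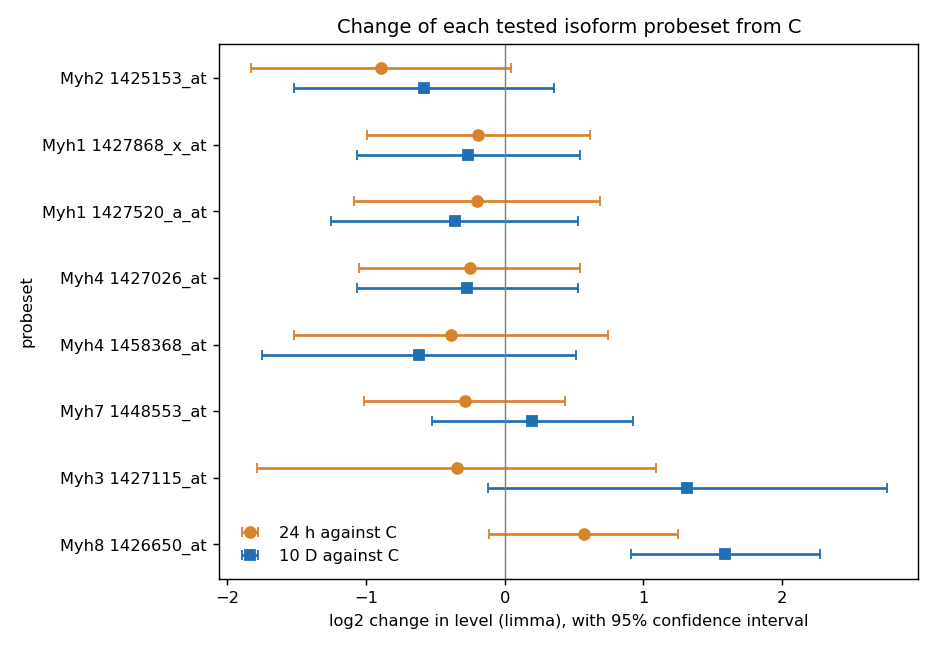
Log2 change in level of the 8 tested probesets annotated to 1 isoform, at 24 h and at 10 D against C, with 95% confidence intervals from limma. The interval of Myh8 at 10 D, 0.91 to 2.27, is the only 1 of the 16 that lies off 0, and it is not adjusted for the number of probesets.

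Whether the isoforms shifted against each other was asked with 6 ratios of levels, each formed within a pool from the brightest probeset of either gene. Only changes of a ratio are read, since probesets differ in brightness for the same amount of RNA. All 6 ratios overlapped between the groups in each comparison, and each exact permutation test of the F ratio left an adjusted p of 0.79 over the 6 ratios. The ratio of type IIx to type IIb, Myh1/Myh4, varied least between pools, and so did the signals it is made of. The Myh1 signal spanned 1.37-fold and the Myh4 signal 1.3-fold over arrays whose medians spanned 2.87-fold, so nothing about the RNA is read from the narrow range of their ratio. Relative to the mean of C it was 0.971-, 1.06- and 0.969-fold in the C pools, 1-, 1.11- and 1.02-fold at 24 h and 1.03-, 1.09- and 0.907-fold at 10 D. On the log2 scale its SD was 0.077 among the C pools, 0.079 at 24 h and 0.136 at 10 D. The mean ratio was 1.04-fold that of C at 24 h and 1-fold at 10 D (exact permutation p = 0.711). The direction of this small change turned at 24 h with the mean over all probesets of each isoform (−0.11 on the log2 scale) and at both times with quantile normalisation (−0.10 and −0.22). Without both treated pools numbered 2 the ratio was 1.01- and 0.965-fold.

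Type IIa against IIb, Myh2/Myh4, was 0.817-, 1.59- and 0.769-fold the C mean in the C pools. At 24 h it was 1.06-, 0.251- and 0.995-fold and at 10 D 1.68-, 0.367- and 0.846-fold. Pools numbered 2 of both treated groups had the lowest ratios, and the other treated pools lay between 0.846 and 1.68. On average it was 0.642-fold at 24 h and 0.805-fold at 10 D (exact permutation p = 0.782), and Myh2/Myh1 0.615- and 0.801-fold (p = 0.786 by the exact permutation test). Both ratios turned without the treated pools numbered 2, Myh2/Myh4 to 1.03- and 1.19-fold and Myh2/Myh1 to 1.01- and 1.24-fold. The ratio of slow to IIb, Myh7/Myh4, was 0.975-fold at 24 h and 1.38-fold at 10 D (exact permutation p = 0.318), and 1.02- and 1.26-fold without those pools. Myh7/Myh2 was 1.52- and 1.72-fold (exact permutation p = 0.532). Pools numbered 2 stood at 3.54-fold at 24 h and 4.53-fold at 10 D, while the other 7 pools lay between 0.923 and 1.22, and without the treated pools numbered 2 the ratio was 0.995- and 1.06-fold. Embryonic to perinatal, Myh3/Myh8, was 0.53-fold at 24 h and 0.827-fold at 10 D (exact permutation p = 0.511), and 0.331- and 0.789-fold without them. Each of the 6 ratios without these pools had an exact permutation p, adjusted over the ratios, of 0.46 or 0.92.

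**Figure D5:**
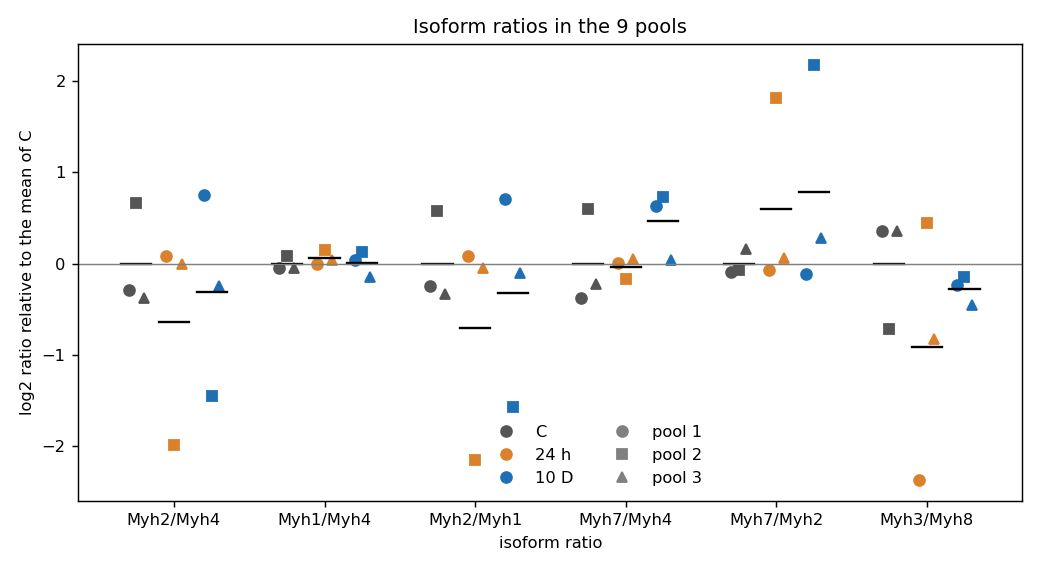
Log2 of 6 isoform ratios in each pool relative to the mean of the C pools, coloured by group, with the pool number as symbol and black bars for group means. Myh1/Myh4 stays between −0.14 and 0.15 in all 9 pools, and the extreme values of Myh2/Myh4, Myh2/Myh1 and Myh7/Myh2 are those of the pools numbered 2 of 24 h and 10 D.

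The genes that accompany the heavy chains in fast and slow fibres were examined as lists, each gene by its brightest tested probeset. In the 2 fast light chain genes, Myl1 and Mylpf, 0 rose and 0 fell at either time, with a median log2 change of −0.19 at 24 h and −0.16 at 10 D. Of 8 further fast fibre genes, of thin filament, calcium and other functions, none passed the test. Their median log2 changes were −0.23 and −0.23, against 0.02 and 0.01 over all probesets. Of these 8, 7 were below 0 at 24 h and 8 at 10 D. Their log2 levels moved opposite to the log2 array median, with r from −0.61 (Mybpc2) to −0.97 (Tnni2). The part of this in their changes was not tested. Atp2a1, the fast calcium pump, had a log2 change of −0.43 at 24 h (adjusted p = 0.73) and Casq1, the fast calsequestrin, of −0.40 (adjusted p = 0.69). The 11 slow fibre genes of thin filament, calcium and other functions had 0 called in either direction at either time. Their medians were −0.14 and −0.23. Of these 11, 8 were below 0 at 24 h and 10 at 10 D. Csrp3, encoding the muscle LIM protein, had the smallest p among them, with a level of 10.4 ± 1.27 (SD, n = 3) in C, 30.6 ± 15.9 at 24 h and 11.3 ± 0.895 at 10 D, or a log2 change at 24 h of 1.40 (adjusted p = 0.25), which became 1.90 without pool 2 of 24 h, with an adjusted p of 0.032, or of 0.0045 without both treated pools numbered 2. The 4 tested slow and cardiac light chains had medians of −0.10 and −0.15 and 0 calls, and Myl7, the atrial light chain, had a log2 change of −1.52 at 24 h (adjusted p = 0.23).

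At 10 D none of 12 tested genes of myosin folding, assembly and turnover was called, as was so for all probesets (0%). At 24 h 1 of the 12 fell, where 0.456% of all probesets were called in either direction. It was Mylk2, the kinase of the skeletal myosin regulatory light chain, at a level of 28.2 ± 2.04 (SD, n = 3) in C, 12.9 ± 1.83 at 24 h and 29.8 ± 0.598 at 10 D, a log2 change at 24 h of −1.14 with an adjusted p of 0.053. The call of Mylk2 was lost under the same alternatives as that of Myog, other than the plain analysis of variance (0.058), at adjusted p-values from 0.12 to 0.26 without single pools, 0.15 without an intensity trend and 1 with no scaling. Myom3, an M-band protein, had 0.68 at 24 h (adjusted p = 0.37). Of 24 regulators of myosin heavy chain transcription 0 rose and 0 fell at either time, with medians of −0.14 and −0.17. The 2 with the smallest F test p were Vgll2, a cofactor of TEAD factors in muscle, with −0.93 at 24 h (adjusted p = 0.20, but 0.056 with only C and 24 h in the fit and 0.088 without pool 2 of 10 D, both under the threshold), and Nr4a3, an orphan nuclear receptor that beta-adrenergic agonists induce, with 1.84 (adjusted p = 0.48). Myh7b and Myh14, other myosin heavy chains, had log2 changes of 1.12 at 10 D (adjusted p = 1) and −0.12 at 24 h (adjusted p = 0.93). The non-muscle Myh9 had 0.35 and the smooth muscle Myh11 −0.77 at 24 h (adjusted p = 0.75 and 0.51).

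Genes whose levels ran most like those of a member over the 9 pools were found by Pearson correlation of log2 levels, as a description. For Myh4 they were Aldoa (r = 0.994), Pvalb (0.992) and Tpt1 (0.986), and for Myh1 Aldoa (0.98), ND5 (0.975) and Tpt1 (0.973), all bright probesets that share the dependence on the array median. Nearest to Myh2 were St3gal2 (0.989), Rtn2 (0.971) and Dctn1 (0.971), and nearest to Myh7 P2ry14 (0.966), Snrpd3 (0.954) and Morn4 (0.949). Myh8 ran most like Olfr140 (0.961), Mto1 (0.951) and Abcg1 (0.95), and Myh3 like Vill (0.946), Phf7 (0.944) and Vps11 (0.944). Between Myh3 and Myh8 themselves r was 0.61.

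Markers of muscle fibres and of other cells in the samples were read in the same way. All 7 fibre markers were measured, with a summed level from 1170 to 1770 in C, 1070 to 1420 at 24 h and 964 to 1580 at 10 D. The log2 levels of Ckm, Ttn, Eno3 and Acta1 moved opposite to the log2 array median (r = −0.94, −0.93, −0.9 and −0.77). For Pygm, Neb and Myot r was −0.2, −0.11 and 0.15. The part of this in the sums was not tested. Macrophage markers (5 of 5 tested) summed to 14.9 to 21 in C, 18 to 26.1 at 24 h and 17.8 to 22.2 at 10 D, and endothelial markers (5 of 5) to 18.2 to 21, 20.9 to 26.5 and 15.4 to 19.1. Fibroblast markers (5 of 5) summed to 141 to 261, 111 to 203 and 142 to 161. Adipocyte markers (4 tested of 6) summed to 102 to 150, 97.5 to 151 and 96.9 to 121, mostly from Fabp4 (mean level 97.35 in C). The median log2 change of these 4 was −0.555 at 24 h, with 3 below 0 and 1 above. At 10 D it was −0.803, with all 4 below 0. Smooth muscle markers (4 of 4) summed to 37.7 to 42.6, 41.3 to 52.2 and 37.9 to 46.9, and nerve and Schwann cell markers (3 tested of 5) to 23.4 to 32.2, 21.5 to 33.4 and 28.3 to 39. Skin markers (4 of 4) summed to 3.25 to 16.8 in C, 2.1 to 3.33 at 24 h and 3.29 to 7.85 at 10 D, with a median log2 change of −1.37 at 24 h. No marker passed the test in any direction and none had a signal of 0 in any pool. Those with the smallest p were Kdr, an endothelial receptor (−0.73 at 10 D, adjusted p = 1), Emcn, an endothelial sialomucin (0.84 at 24 h, adjusted p = 0.26), Cd68 of macrophages (0.85 at 24 h, adjusted p = 0.36) and Krt10 of skin (−1.64 at 24 h, adjusted p = 0.27). The part of these cells in the isoform levels was not tested.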

How the data were processed

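The deposited values were signal intensities, 1 per probeset and array, that the authors had obtained with MAS 5.0, on a linear scale and with medians that differed between arrays. The MAS 5.0 settings, among them any scaling of the arrays, are not given in the sources used here. In R 4.3.3 each signal was divided by its array median, with 18 values of 0 set to 0.05, before taking log2. The chips held 22626 (MOE430A) and 22511 (MOE430B) probesets, of which 100 were on both and were used from MOE430A. Probesets with a mean log2 signal at or above the 25th percentile of their chip (a signal of 14.1 and 6.97) were tested, 16969 and 16783. A model with 3 groups was fitted to each chip with limma 3.58.1 (lmFit, eBayes with an intensity trend, 6 residual degrees of freedom), with two-sided p-values and 1 Benjamini-Hochberg adjustment across the chips. Exact permutation tests of the F ratio used all 280 divisions of the 9 pools. Scripts were tested on simulated data.

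Symbols came from the platform annotation of GEO (34945 probesets with 1 symbol, 932 with several, 9160 with none listed), updated through RefSeq (GRCm38.p6). Named beside the members were, of each list, every gene called and otherwise the 2 with the smallest F test p, and for each member the 3 genes with the highest correlation. Myh13 and Myh15 were not analysed here. Members and lists were chosen with earlier results of these data known. P-values measure the spread between pools of different mice, and pooling hides that between single mice. The number of arrays limits the precision. Alternatives were other scalings, filters, variance models and adjustments, the replicate number as a block, and each pool left out; cyclic loess, no scaling, leaving out both treated pools numbered 2 (members and ratios) and the permutation test of single members were added after the data were seen. Figures were drawn with matplotlib.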

Additional observations from a re-analysis of the deposited data

How the results depend on the processing

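Calls of members were 0 in the F test and in all contrasts under each of 91 combinations of comparison and alternative, and the 6 isoform ratios kept an exact permutation p, adjusted over the ratios, between 0.193 and 0.996. Without both treated pools numbered 2 the ratios Myh2/Myh4 and Myh2/Myh1 turned in direction at both times, Myh7/Myh4 and Myh7/Myh2 at 24 h and Myh1/Myh4 at 10 D. Under the alternatives 9 log2 changes of members turned in sign and 399 did not, and the cause was not tested. All 9 came from leaving out pools. The 24 h change of Myh1 ranged from −0.44 to 0.0498 (1427868_x_at) and from −0.35 to 0.0423 (1427520_a_at), that of Myh3 from −0.97 to 0.45 and that of Myh4 (1458368_at) from −0.69 to 0.0307. At 10 D the ranges were −0.55 to 0.10 and −0.80 to 0.0732 for these Myh1 probesets, −0.50 to 0.11 for Myh4 (1427026_at) and −0.16 to 0.50 for Myh7, with −0.16 also without both treated pools numbered 2. Myh8 at 10 D stayed between 1.40 and 1.82, with adjusted p-values from 0.43 to 1, and Myh3 at 10 D between 1.07 and 1.56. Among the other genes, Myl1 at 10 D ranged from −0.393 to 0.112 with single pools left out and Mylpf at 24 h from −0.462 to 0.0444, and with no scaling Myh14 at 24 h was 0.0153, Myl1 at 10 D 0.0473 and Myl3 at 10 D 0.0392.

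Counts over all probesets moved more. The F test called between 7 and 347 against 73, 24 h against C between 12 and 599 against 154, 10 D against C between 0 and 5 against 0, and 10 D against 24 h between 0 and 110 against 17. The lowest counts at 24 h against C came with no scaling (12), and the highest without both pools numbered 2. The plain analysis of variance called 31, 100, 0 and 18. Of 18 same-numbered pairs of pools 4 correlated over 0.1, all among the 6 pairs of 24 h with 10 D (0.0077 to 0.56) and 0 of the 12 with a C pool, so the numbers did not pair all 3 groups. With the replicate block Myh8 at 10 D had an adjusted p of 0.68 and the counts were 66, 209, 3 and 17. A filter at the 50th percentile left Myh3 and Myh8 untested.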
